A study of Mus musculus with 6 samples.

Results

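Ovaries of mice that had received nintedanib were compared with every ovary that had not, to ask which genes the drug group alone set apart. Members were taken by label: the 2 nintedanib libraries on one side, and the 4 drug-free libraries on the other as a single arm, which together make up all 6 libraries of the series. The drug-free arm held 2 libraries labelled COH, an abbreviation the labels do not spell out, and 2 libraries of mice modelling the ovarian hyperstimulation syndrome (OHSS) without a drug. The nintedanib arm held 2 libraries of the OHSS model given nintedanib, also called bibf1120. All mice were of the ICR strain, an outbred stock, and whole ovaries were flash frozen and sequenced as bulk RNA. The dose, the timing of the drug, the ages and the hormone schedule are not stated in the labels. No group paired COH with nintedanib, so an effect of the drug and an effect of the drug on hyperstimulated ovaries cannot be told apart. Whether libraries of one group stem from different animals is not labelled, so the p-values reflect variation from library to library alone, which may be technical.

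Nintedanib is a small-molecule inhibitor of the tyrosine kinase domains of the receptors for VEGF, PDGF and FGF, which drive the growth of endothelial cells, pericytes and fibroblasts. In the ovary, granulosa cells nourish the oocyte and convert androgen to oestrogen before ovulation, and then turn, with theca cells, into the heavily vascularised corpus luteum. OHSS is a complication of ovarian stimulation in which VEGF from the ovary makes vessels leak.

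The libraries held 28498435 to 34716751 counts each and detected 24712 to 25796 genes, with 5.21% to 7.10% of counts on mitochondrial genes. Markers of the labelled tissue were abundant in all 6 libraries: summed levels ran from 5664 to 7739 CPM (normalised counts scaled to a common library total) for granulosa markers, from 27634 to 39223 CPM for luteal markers and from 297 to 560.2 CPM for oocyte markers. Replicate 2 of nintedanib stood apart, with a mean correlation of 0.952 to the other libraries where the rest had 0.962 to 0.965. For the lists described below, counts or medians are given with and without that library. Replicate numbers did not pair the libraries across groups.

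Of 51826 genes in the table, 19027 passed the filter on low counts and were tested. With an adjusted p below 0.05 in edgeR's quasi-likelihood test (Benjamini-Hochberg over all genes tested), 5 genes were called, 0.0263% of those tested. The 2 genes that rose in the nintedanib ovaries (0.0105%) were Rpsa-ps10 and Abhd4, and the 3 that fell (0.0158%) were Aldh3b2, Kidins220 and Pcdhb19. DESeq2 called 186 genes (0.978%), 105 higher and 81 lower, and all 5 edgeR calls were among them, whereas limma voom called 4 (0.0210%), of which 3 were shared with edgeR. At an unadjusted p below 0.05, edgeR marked 802 genes as higher (4.22%) and 620 as lower (3.26%), 7.47% together. The 2 arms did not overlap for 3176 genes (16.7%), of which 1689 (8.88%) lay higher in both nintedanib libraries than in every drug-free library and 1487 (7.82%) lower. Fold changes below are log2 values from edgeR, nintedanib minus drug-free, and their median over all genes tested was -0.0065. The number of edgeR calls depended on single libraries: it was 0 without COH replicate 1 or without COH replicate 2, 3 without OHSS replicate 1, 1 without OHSS replicate 2, 75 without nintedanib replicate 1 and 5 without nintedanib replicate 2. A single comparison of 2 libraries with 4 cannot go below an exact permutation p of 0.133 when the smaller tail is doubled. The edgeR test models the spread instead. It used 4 residual degrees of freedom of each gene and 2.55 prior ones shared across genes.

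Abhd4, which encodes a hydrolase that removes an acyl chain from N-acyl phospholipids, a step in the synthesis of lipid amides such as anandamide, rose 2.94-fold. Its level was 125 and 134 CPM (COH), 139 and 130.1 CPM (OHSS) and 434 and 343 CPM (nintedanib). The 4 drug-free values lay within 125 to 139 CPM and both nintedanib values lay above them. The mean was 389 ± 64.1 CPM with nintedanib (SD, n = 2) against 132 ± 5.998 CPM in the drug-free ovaries (SD, n = 4), a log2 difference of 1.55 (SE 0.116) with an adjusted p of 0.0291 in edgeR's quasi-likelihood test. In a fit of the 3 separate groups, Abhd4 was higher than in OHSS by 1.53 (SE 0.144) and higher than in COH by 1.58 (SE 0.144), while OHSS minus COH was 0.054 (SE 0.141). Abhd4 was not called in a test against a log2 change of 0.5. No other gene shared its exons in the reference annotation. It passed the threshold in 9 of 15 alternative settings, with a log2 difference of 1.37 to 1.71 over them and an adjusted p of at most 0.147.

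Kidins220, a membrane scaffold that couples neurotrophin receptors to MAP kinase signalling and is a substrate of protein kinase D, fell 2.88-fold. It stood at 115 and 109 CPM (COH), 121 and 125 CPM (OHSS) and 44.3 and 37.2 CPM (nintedanib). Again the drug-free values were tightly grouped, and the highest nintedanib value was below 109 CPM, the lowest of them. The mean was 40.7 ± 5.03 CPM with nintedanib (SD, n = 2) against 117 ± 7.04 CPM in the drug-free ovaries (SD, n = 4). The log2 difference of -1.53 (SE 0.121) had an adjusted p of 0.0291 in edgeR's quasi-likelihood test, against -1.60 (SE 0.122) from OHSS and -1.46 (SE 0.122) from COH taken separately. An uncharacterised gene on the other strand, Gm36236, shares 138 exonic bases with Kidins220, and the sources do not say whether counting used strand. Like Abhd4, Kidins220 was not called in a test against a log2 change of 0.5. Over 15 alternatives the log2 difference ran from -1.66 to -1.41, the adjusted p reached at most 0.147, and 8 passed.

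Aldh3b2, a dehydrogenase that oxidises lipid aldehydes, was nearly undetected with nintedanib. It had 0 counts in replicate 1 and 1 count in replicate 2 of nintedanib, against 255 to 465 counts in the drug-free libraries. In CPM these were 10.3 and 8.93 CPM (COH), 14.9 and 12.01 CPM (OHSS) and 0 and 0.0312 CPM (nintedanib). The ratio of the pooled levels was 704, with a 95% interval of 62.9 to 13915 that covers counting error only, and the adjusted p in edgeR's quasi-likelihood test was 0.0209. Its neighbour on the chromosome, Aldh3b3, was looked up after these values were seen, and it also had 0 and 1 counts with nintedanib. Aldh3b3 stood at 2.53 and 2.66 CPM (COH), 3.50 and 2.51 CPM (OHSS) and 0 and 0.0312 CPM (nintedanib), a ratio of 170.3 (interval 15.04 to 3373), and missed the threshold in edgeR with an adjusted p of 0.0617. The other 3 tested genes of the Aldh3 family had log2 differences of only -0.13 to 0.30.

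Pcdhb19, a member of the beta cluster of protocadherins, adhesion proteins whose combinations give single cells an identity, had no counts in either nintedanib library. Its drug-free counts ran from 188 to 314 per library, and its levels were 7.34 and 9.81 CPM (COH), 6.04 and 10.4 CPM (OHSS) and 0 and 0 CPM (nintedanib). Set against a floor of 6 counts per library, which corresponds to 3 read pairs, it was at least 42.5-fold lower with nintedanib, with an adjusted p of 0.0291 in edgeR's quasi-likelihood test. The other 20 tested genes of the cluster were detected with nintedanib, at 0.989 to 11.6 CPM on average, and had log2 differences of -0.72 to 1.67, 13 of them below 0. These genes share sequence, and how reads that map to several places were counted is not stated in the labels or notes. A search of annotated transcripts for near-identical copies over at least 200 bases found none for Pcdhb19, Aldh3b2 or Aldh3b3. A part of read mapping in their counts was not tested. Aldh3b2 passed in 9 and Pcdhb19 in 7 of 15 alternatives, and the sign was the same in each.

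Rpsa-ps10, a processed pseudogene of the ribosomal protein gene Rpsa, showed the smallest p of all genes, and its level is uncertain because 879 of its 885 bases are identical to Rpsa. It was counted at 10.99 and 11.9 CPM (COH), 8.78 and 5.81 CPM (OHSS) and 346 and 374 CPM (nintedanib), a log2 difference of 5.26 (SE 0.277) and an adjusted p of 0.0108 in edgeR's quasi-likelihood test. Rpsa itself, added after its values were seen, averaged lower, at 1139 and 1039 CPM (COH), 904 and 726 CPM (OHSS) and 623 and 615 CPM (nintedanib). The sum of both genes was 979 ± 14.2 CPM with nintedanib (SD, n = 2) and 961 ± 181 CPM in the drug-free ovaries (SD, n = 4). Against the joined drug-free arm, counts were thus higher for the copy and lower for the parent gene, with little difference in the total. By library the total was 1150 and 1050 CPM (COH), 913 and 731 CPM (OHSS) and 969 and 989 CPM (nintedanib). The nintedanib totals thus lay below both COH libraries and above both OHSS libraries. Rpsa was also lower in OHSS than in COH, with OHSS minus COH at -0.42 (SE 0.143). A further 10 copies of Rpsa aligned to Rpsa-ps10 over at least 200 bases.

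**Figure D1:**
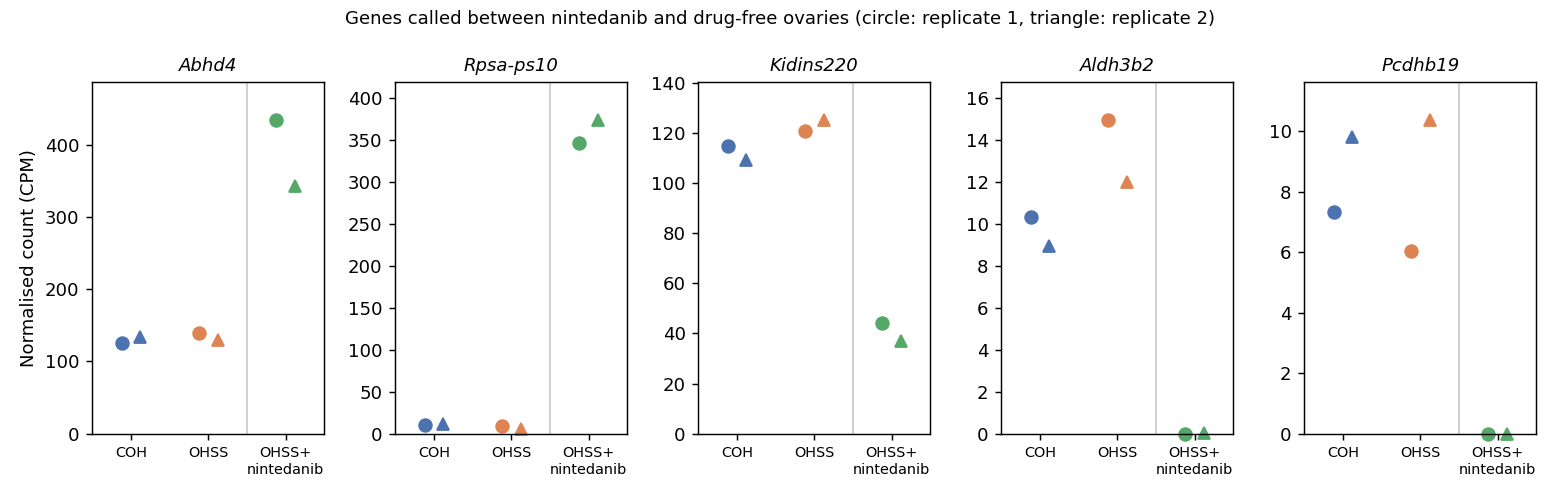
Normalised counts in CPM (vertical axes, each starting at 0) of the 5 genes called between the arms, in COH, OHSS and OHSS with nintedanib; each symbol is 1 library, a circle for replicate 1 and a triangle for replicate 2. In every panel both nintedanib libraries lie outside the range of the 4 drug-free libraries, with Abhd4 at 434 and 343 CPM and Kidins220 at 44.3 and 37.2 CPM.

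The next genes were not called by edgeR and are given as values: they are the genes with the smallest unadjusted p, a mean of at least 5 CPM and arms that did not overlap, 11 higher and 9 lower. Their edgeR adjusted p ran from 0.137 to 0.319. All 20 were called by DESeq2 and 0 by limma voom, and none passed in any of the alternative edgeR settings.

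Among the higher ones, Thbs4, a pentameric glycoprotein of the extracellular matrix, stood at 52.6 and 67.6 CPM (COH), 64.4 and 66.2 CPM (OHSS) and 135 and 141 CPM (nintedanib). Its log2 difference was 1.14 (SE 0.121), with the smallest unadjusted p of the uncalled group, 5.05e-05, and an adjusted p of 0.137 in edgeR. Mfap3, a microfibril-associated glycoprotein, had the largest difference of the 11, at 4.69 and 9.04 CPM (COH), 14.2 and 12.7 CPM (OHSS) and 63.9 and 63.7 CPM (nintedanib), a log2 difference of 2.65 (SE 0.389). Its nintedanib values were nearly equal, but COH and OHSS also differed from each other, with OHSS minus COH at 0.98 (SE 0.309) and an unadjusted p of 0.0223. Trib2, a pseudokinase that brings a ubiquitin ligase to its targets, stood at 163 and 223 CPM (COH), 173 and 197 CPM (OHSS) and 361 and 471 CPM (nintedanib), a log2 difference of 1.14 (SE 0.166). Ace, which encodes angiotensin-converting enzyme, averaged 42.4 ± 3.55 against 24.6 ± 1.97 CPM (log2 difference 0.79, SE 0.118), and shares 295 exonic bases with Gm11651 on the other strand. Fam13a stood at 149 ± 29.8 against 78.7 ± 7.49 CPM and shares 78 exonic bases with Gm45061.

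Other genes of the higher group were Nav2, a cytoskeletal regulator of neurite growth (48.8 ± 7.18 against 23.1 ± 2.73 CPM, log2 difference 1.08, SE 0.147), Dock5, an exchange factor for Rac (83.9 ± 20.4 against 42.3 ± 2.14 CPM, log2 difference 0.99, SE 0.147), and Atp6v1e1, a subunit of the vacuolar proton pump (161 ± 8.06 against 98.7 ± 7.96 CPM, log2 difference 0.70, SE 0.105). Mgat4c, an enzyme that branches N-glycans, averaged 40.9 ± 0.761 against 21.1 ± 1.91 CPM (log2 difference 0.96, SE 0.119), and Gstm6, a glutathione transferase, 27.5 ± 2.98 against 12.8 ± 1.60 CPM (log2 difference 1.10, SE 0.154). Bex1, a small adaptor protein of neurons, averaged 20.6 ± 1.56 against 9.66 ± 1.04 CPM (log2 difference 1.09, SE 0.147) and is uncertain, since 262 of its 265 bases aligned to Bex4 are identical. Bex1 overlaps Tceal7 on the other strand by 223 exonic bases, Nav2 overlaps Gm2788 on the same strand by 295, and Atp6v1e1 overlaps Slc25a18 on the other strand by 32. The values set beside each other here are nintedanib first and drug-free second, as mean ± SD over 2 and 4 libraries.

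Among the lower ones, Fkbp5, a co-chaperone that binds steroid hormone receptors and is a standard target of glucocorticoid and progesterone receptors, had the largest difference of the 9. Its values were 999.8 and 1078 CPM (COH), 777 and 1386 CPM (OHSS) and 278 and 186 CPM (nintedanib). OHSS replicates 1 and 2 differed from each other, yet the lowest drug-free value was well above the highest with nintedanib. The log2 difference was -2.19 (SE 0.293), with an adjusted p of 0.200 in edgeR. C3, the central component of complement, stood at 68.9 and 67.0 CPM (COH), 71.0 and 77.6 CPM (OHSS) and 37.6 and 40.6 CPM (nintedanib), a log2 difference of -0.86 (SE 0.106). Yeats4, a reader of acetylated histones, had drug-free values that hardly varied, at 49.8 and 48.5 CPM (COH), 49.7 and 48.3 CPM (OHSS) and 29.2 and 24.1 CPM (nintedanib), a log2 difference of -0.88 (SE 0.113). Cd74, the invariant chain that guides MHC class II molecules through the cell, stood at 155 and 137 CPM (COH), 109 and 124 CPM (OHSS) and 54.7 and 31.4 CPM (nintedanib), a log2 difference of -1.61 (SE 0.262) and the last gene of this group by p, with an adjusted p of 0.319 in edgeR.

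Epn2, an adaptor of clathrin-mediated endocytosis, averaged 21.9 ± 3.75 against 57.6 ± 7.89 CPM (log2 difference -1.39, SE 0.179). The splicing factor Rsrc1 averaged 17.6 ± 2.70 against 37.5 ± 2.5 CPM (log2 difference -1.10, SE 0.137) and shares 153 exonic bases with Shox2 on the other strand. Snrk, a kinase related to AMPK, averaged 28.2 ± 7.30 against 65.2 ± 4.83 CPM (log2 difference -1.21, SE 0.175), and Wnt10a, a secreted WNT ligand, 2.94 ± 0.0598 against 9.52 ± 1.83 CPM (log2 difference -1.69, SE 0.249). Snrk and the pseudogene Gm17934 match over 413 of 422 aligned bases.

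**Figure D2:**
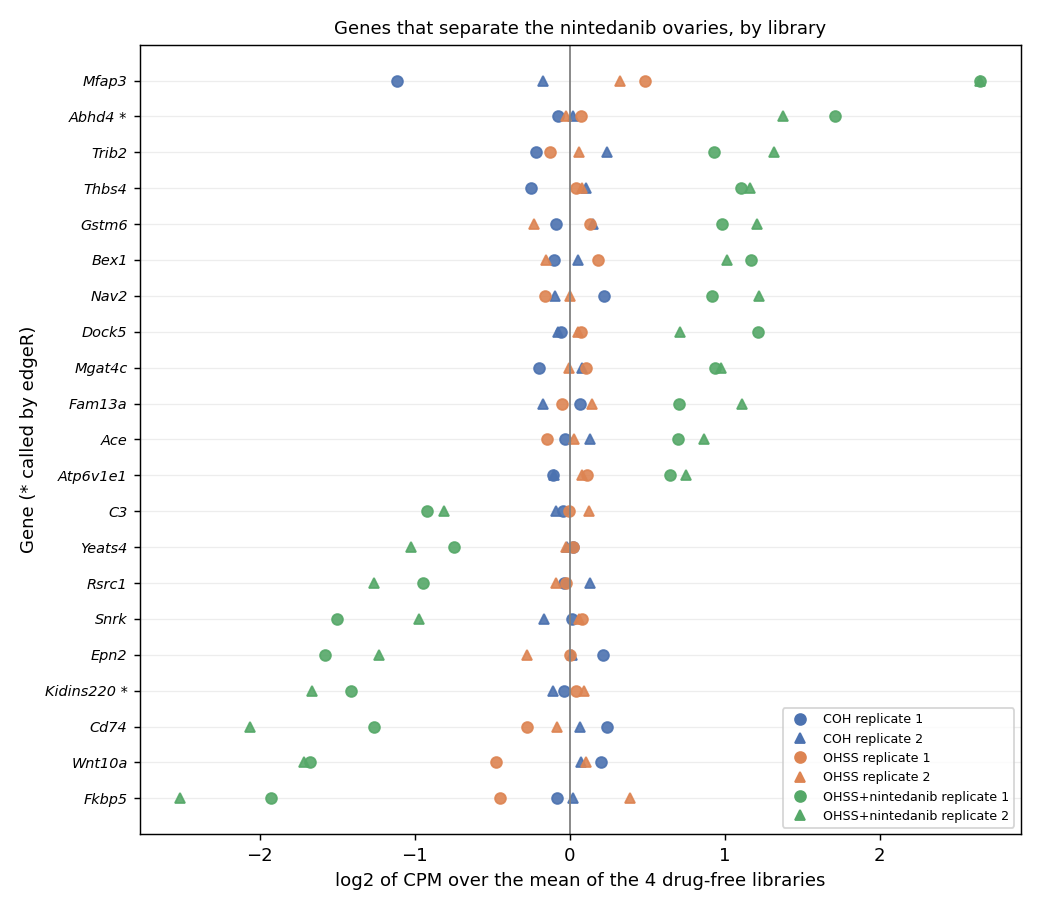
Level of each gene in each library as log2 of its CPM over the mean of the 4 drug-free libraries (horizontal axis). Shown are the called genes Abhd4 and Kidins220 (marked with an asterisk) and the uncalled genes named with them. The called genes Rpsa-ps10, Aldh3b2 and Pcdhb19 are not drawn, and Aldh3b2 and Pcdhb19 had counts of 0. Drug-free libraries lie on both sides of 0, most widely for Mfap3, at ratios of 0.461 and 0.888 (COH) and 1.40 and 1.25 (OHSS). The nintedanib libraries lie to one side of them, for example at ratios of 3.28 and 2.60 for Abhd4 and 0.262 and 0.175 for Fkbp5.

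Whether these genes also differed within the drug-free arm was read from the contrast OHSS minus COH, for which edgeR called 2 genes (0.0105% of those tested) and marked 1679 (8.82%) at an unadjusted p below 0.05. Of the 24 named genes other than Rpsa-ps10, 1 (Mfap3) was at an unadjusted p below 0.05 in that contrast, and 21 had an absolute log2 difference below 0.3 between OHSS and COH. The genes were picked for arms that did not overlap, which favours a small spread in the drug-free arm, so this count describes them and tests nothing. Rpsa-ps10, left out of that count, also differed within the drug-free arm. Its OHSS minus COH was -0.65 (SE 0.206), with an unadjusted p of 0.0227 in edgeR's quasi-likelihood test. Nintedanib against OHSS alone gave 1 called gene (0.00526%), and nintedanib against COH alone gave 5 (0.0263%). Both share the nintedanib libraries.

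**Figure D3:**
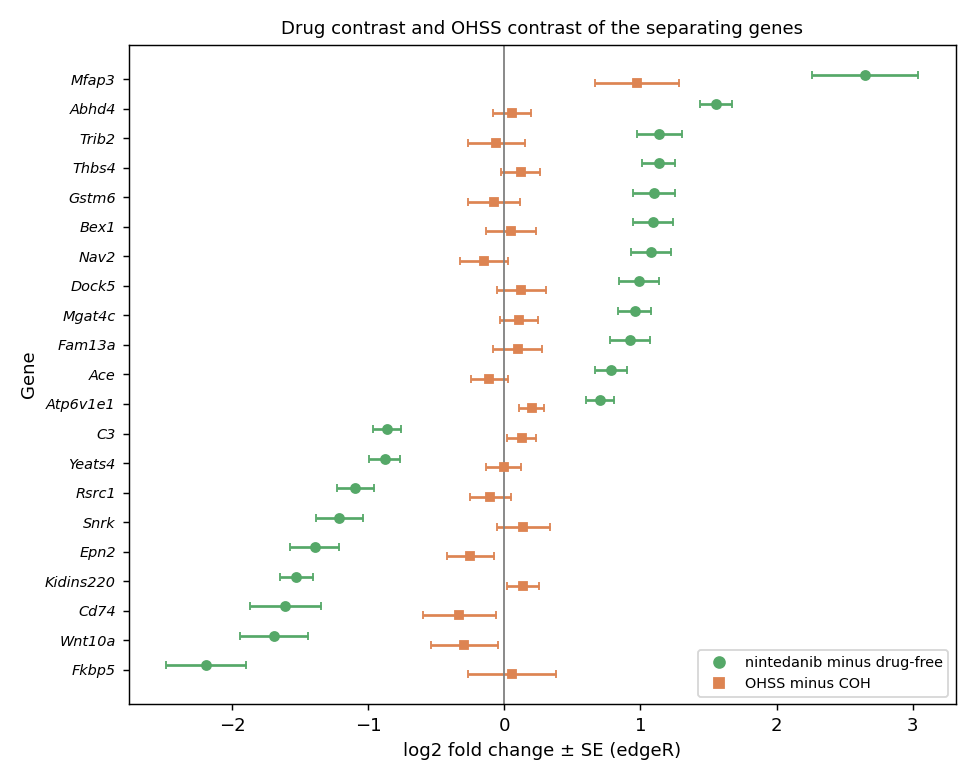
Log2 fold changes (horizontal axis, with SE bars) of 21 named genes with nintedanib over all drug-free ovaries (circles) and OHSS over COH (squares). Apart from Mfap3 at 0.98, the squares lie between -0.33 and 0.20, while Abhd4 and Kidins220 lie at 1.55 and -1.53 in the drug contrast and at 0.05 and 0.14 in the OHSS contrast.

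Of 13 kinases that are targets of the drug, 0 had an unadjusted p below 0.05, beside 7.47% of all genes tested, and 0 or 1 in each direction did so when a library was left out. The mean was higher for 7, and their median log2 difference was 0.045. Kdr, the main VEGF receptor of endothelium, stood at 94.1 and 81.5 CPM (COH), 85.9 and 76.4 CPM (OHSS) and 103 and 91.3 CPM (nintedanib), a log2 difference of 0.20 (SE 0.116). The other VEGF receptors Flt1 and Flt4 had log2 differences of 0.26 (SE 0.131) and 0.25 (SE 0.121), and the arms of Flt4, the lymphatic receptor, did not overlap. Pdgfra averaged 171 ± 6.10 against 208 ± 26.3 CPM (log2 difference -0.28, SE 0.137) with arms that did not overlap, and Pdgfrb, the receptor of pericytes, -0.40 (SE 0.233). Fgfr1, Fgfr2, Fgfr3 and Fgfr4 had log2 differences of -0.085, -0.25, -0.62 and 0.048, each with overlapping arms.

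Of 15 ligands, 1 was higher and 1 lower at an unadjusted p below 0.05, beside 4.22% and 3.26% of all genes tested. These were, without nintedanib replicate 2, 1 and 0. Vegfd, a ligand of the lymphatic VEGF receptor, stood at 13.04 and 10.8 CPM (COH), 15.1 and 12.3 CPM (OHSS) and 22.8 and 16.0 CPM (nintedanib), a log2 difference of 0.60 (SE 0.199, unadjusted p 0.0214), and Fgf18 averaged 0.958 ± 0.165 against 1.58 ± 0.193 CPM (log2 difference -0.72, SE 0.299). Vegfa, the ligand held responsible for the leak of OHSS, overlapped between the arms at 103 and 89.7 CPM (COH), 167 and 111 CPM (OHSS) and 134 and 121 CPM (nintedanib), a log2 difference of 0.11 (SE 0.246). Vegfb and Fgf1 averaged lower without overlap, with log2 differences of -0.24 (SE 0.113) and -0.92 (SE 0.425). The 16 feedback and target genes of growth factor receptors, which report on signalling through MAP kinase, had 0 members at an unadjusted p below 0.05 (1 higher without nintedanib replicate 2) and a median of 0.032. Dusp6, a phosphatase that switches off ERK, stood at 54.1 and 57.2 CPM (COH), 94.0 and 62.7 CPM (OHSS) and 62.0 and 44.3 CPM (nintedanib), a log2 difference of -0.33 (SE 0.264), and the inhibitors Spry4 and Spry1 had 0.16 (SE 0.160) and -0.33 (SE 0.262). Il17rd, which restrains FGF signalling, averaged 9.94 ± 1.05 against 13.1 ± 1.75 CPM without overlap (log2 difference -0.40, SE 0.176), and Spred3 averaged 13.04 ± 1.47 against 9.45 ± 2.14 CPM with overlap.

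Of 20 endothelial cell markers, 16 had a higher mean with nintedanib than in the joined drug-free arm, beside 49.1% of all genes tested, and the median log2 difference was 0.087. That median was 0.22 against OHSS alone and 0.0069 against COH alone. List medians relative to the drug-free mean were 0.084 and 0.12 (COH), -0.15 and -0.052 (OHSS) and 0.17 and 0.059 (nintedanib), so nintedanib replicate 2 lay below both COH libraries. At an unadjusted p below 0.05, 2 were higher and 0 lower (beside 4.22% and 3.26% of all genes), and 4 had higher arms without overlap (beside 8.88%). Cdh5, the adhesion protein of endothelial junctions, stood at 143 and 161 CPM (COH), 121 and 135 CPM (OHSS) and 178 and 207 CPM (nintedanib), so both nintedanib libraries exceeded every drug-free one. Its log2 difference was 0.46 (SE 0.136) with an adjusted p of 0.604 in edgeR. Tek, the angiopoietin receptor, averaged 46.7 ± 1.81 against 38.0 ± 3.28 CPM (log2 difference 0.30, SE 0.113), and Robo4, a guidance receptor of vessels, 25.1 ± 2.27 against 20.5 ± 1.69 CPM (log2 difference 0.29, SE 0.128). Pecam1, another junction protein, had 0.031 (SE 0.177), a sign that depended on the libraries used, and Vwf averaged 17.2 ± 6.22 against 9.90 ± 3.83 CPM with overlapping arms. Without nintedanib replicate 2, 17 of 20 averaged higher and 0 were at an unadjusted p below 0.05, and without OHSS replicate 1, 12 averaged higher. In bulk tissue, fewer cells of a type and less RNA per cell cannot be told apart.

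Of 18 tip-cell and Notch genes, Nrp1, a co-receptor of VEGF, and Jag1, a Notch ligand, were higher at an unadjusted p below 0.05 (log2 difference 0.38, SE 0.153 and 0.25, SE 0.104) and 0 were lower, beside 4.22% and 3.26% of all genes. Without COH replicate 2 or without nintedanib replicate 1, 0 were higher, and without nintedanib replicate 2, 2 were. Notch4 had arms that did not overlap, at 0.63 (SE 0.278), but OHSS also exceeded COH for it by 0.69 (SE 0.198), and Adm, the vasodilator peptide adrenomedullin, averaged lower without overlap at -0.86 (SE 0.416). Of 20 vessel barrier genes, 3 were higher (Cdh5, Tek and Nos3, the endothelial nitric oxide synthase, at 0.36, SE 0.143) and 1 lower at an unadjusted p below 0.05, beside the same 4.22% and 3.26%. The lower one, S1pr1, a receptor that tightens endothelial junctions, stood at 58.8 and 60.6 CPM (COH), 73.3 and 95 CPM (OHSS) and 53.7 and 37.1 CPM (nintedanib), a log2 difference of -0.66 (SE 0.250). Without nintedanib replicate 2, 0 barrier genes were higher and 0 lower at that p, and without either OHSS library 1 was higher.

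Of 16 granulosa cell markers, 12 averaged higher with nintedanib and 4 lower, beside 49.1% and 50.9% of all genes tested. The lowest log2 difference was -0.65. At an unadjusted p below 0.05, 9 of 16 were higher and 0 lower, beside 4.22% of all genes, and 8 had higher arms without overlap, beside 8.88%. The median log2 difference was 0.56. DESeq2 called 6 of the 16 as higher and edgeR called 0, beside 0.552% and 0.0105% of all genes tested. Nr5a2, a nuclear receptor needed for ovulation, stood at 207 and 178 CPM (COH), 164 and 228 CPM (OHSS) and 314 and 344 CPM (nintedanib), a log2 difference of 0.76 (SE 0.148). Fst, the activin-binding protein follistatin, stood at 81.8 and 62.3 CPM (COH), 68.6 and 99.5 CPM (OHSS) and 133 and 209.7 CPM (nintedanib), a log2 difference of 1.13 (SE 0.241). For both genes the nintedanib values exceeded all drug-free values. Inha, the inhibin alpha chain, averaged 3218 ± 479.9 against 2124 ± 138 CPM (log2 difference 0.60, SE 0.146). Bex4 averaged 76.2 ± 23.7 against 34.5 ± 7.98 CPM (log2 difference 1.14, SE 0.252) and is uncertain, since the pseudogenes Gm4322 and Gm12245 match it nearly base for base. Those pseudogenes, looked up after the values were seen, had log2 differences of -5.56 and -4.68, and the 3 together stood at 76.4 ± 23.7 CPM with nintedanib and 40.0 ± 7.74 CPM without.

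Cyp19a1, the aromatase that makes oestrogen in granulosa cells, stood at 27.4 and 17.8 CPM (COH), 39.0 and 41.5 CPM (OHSS) and 62.1 and 122 CPM (nintedanib), a log2 difference of 1.55 (SE 0.386), and DESeq2 called it with an adjusted p of 0.0230. Inhba, the activin chain, and Esr2, the oestrogen receptor of granulosa cells, were picked out after their values were seen and had log2 differences of 1.53 (SE 0.399) and 0.95 (SE 0.235). The counts depended on nintedanib replicate 2: without it, 4 of 16 markers were higher at an unadjusted p below 0.05 (beside 1.93% of all genes), and the median was 0.37. Medians over the list, relative to the drug-free mean, were 0.11 and -0.19 (COH), -0.028 and 0.042 (OHSS) and 0.39 and 0.54 (nintedanib).

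Other steroid and luteal genes differed in both directions. Of 17 genes of steroid hormone synthesis, 2 were higher (Cyp19a1 and Hsd17b1, which activates oestrone, at 0.51, SE 0.175) and 1 lower at an unadjusted p below 0.05, beside 4.22% and 3.26% of all genes. The lower one, Hsd17b7, of cholesterol and oestradiol synthesis, stood at 1196 and 1062 CPM (COH), 670.2 and 2349 CPM (OHSS) and 573 and 415 CPM (nintedanib), a log2 difference of -1.42 (SE 0.502), with OHSS replicate 2 far above OHSS replicate 1. Star, which brings cholesterol into mitochondria, Cyp11a1, which cleaves it to pregnenolone, and Cyp17a1, which leads to androgens, had overlapping arms and log2 differences of 0.23 (SE 0.487), -0.22 (SE 0.198) and 1.21 (SE 0.717). Without nintedanib replicate 2, 0 steroid genes were higher and 0 lower at that p, and without OHSS replicate 1, 5 were higher. For Star, OHSS exceeded COH by 1.23 (SE 0.338). Of 13 luteal markers, 0 were higher and 1 lower at an unadjusted p below 0.05, beside 4.22% and 3.26% of all genes. The lower one was Runx2, a transcription factor of the early corpus luteum (-0.59, SE 0.177). The list median of -0.22 was -0.31 against OHSS alone, -0.047 against COH alone, and -0.10 without nintedanib replicate 2. Relative to the drug-free mean, list medians were -0.21 and -0.21 (COH), -0.038 and 0.35 (OHSS) and -0.060 and -0.41 (nintedanib). Nintedanib replicate 1 thus lay above both COH libraries. The luteinising hormone receptor Lhcgr had -0.21 (SE 0.276) and Sfrp4, a secreted WNT inhibitor, -0.69 (SE 0.370). Of 16 tested ovulation genes, 2 were higher and 1 lower at an unadjusted p below 0.05, again beside 4.22% and 3.26%, and the median was 0.11. Leaving out nintedanib replicate 2, these counts were 0 and 0, and the median was -0.20. Adamts1, a protease of follicle rupture, stood at 35.6 and 33.5 CPM (COH), 40.3 and 43.8 CPM (OHSS) and 49.2 and 90.9 CPM (nintedanib), a log2 difference of 0.87 (SE 0.242). Btc, an EGF-like ligand and the other higher gene, had a low level, 2.02 ± 1.24 against 0.850 ± 0.233 CPM, and the lower gene was Runx2. Snap25 had 6.67 CPM in OHSS replicate 2 and 0.125 to 0.707 CPM in the other 5 libraries.

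Every one of the 25 cell cycle genes averaged higher with nintedanib, beside 49.1% of all genes tested. Of them, 8 were at an unadjusted p below 0.05, all higher (beside 4.22% of all genes), and 13 had higher arms without overlap (beside 8.88%). DESeq2 and edgeR called 0 of the 25, beside 0.552% and 0.0105% of all genes called higher. The median log2 difference was 0.35. Mki67, the marker of dividing cells, stood at 57.3 and 44.6 CPM (COH), 65.8 and 51.6 CPM (OHSS) and 85.8 and 83.1 CPM (nintedanib), a log2 difference of 0.62 (SE 0.158, adjusted p 0.552 in edgeR). Ccnb1 and Ccnb2, the cyclins of mitotic entry, stood at 26.7 and 25.9 CPM (COH), 20.4 and 20.9 CPM (OHSS) and 35.8 and 32.0 CPM (nintedanib) and at 23.2 and 21.8 CPM (COH), 23.3 and 17.7 CPM (OHSS) and 30.004 and 29.6 CPM (nintedanib). Both nintedanib libraries exceeded all drug-free libraries for the 3 genes, with differences for the cyclins of 0.53 (SE 0.153) and 0.47 (SE 0.142). Ccne2, a cyclin of S-phase entry, averaged 14.8 ± 1.83 against 9.80 ± 1.04 CPM (log2 difference 0.59, SE 0.160). Without nintedanib replicate 2, 23 of 25 averaged higher, 3 were at an unadjusted p below 0.05 (beside 1.93% of all genes) and 17 had higher arms (beside 19.4%). Leaving out COH replicate 1 gave 13 genes at that p, and leaving out either OHSS replicate 2 or nintedanib replicate 1 gave 5.

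The sequences before the start sites of Mki67, Ccnb1 and Ccnb2 are shown because mitotic genes are known to be switched on together through a CCAAT box and a cell-cycle element. They are the 250 bases before the start site from RefSeq on GRCm38.p6, read 5′ to 3′ on the gene's strand, at chr7:135716380-135716629, chr13:100786487-100786736 and chr9:70421555-70421804, all on the minus strand. Capitals mark ATTGG on either strand (the CCAAT box) and TTTGAA or TTTAAA on either strand (the core of the cell-cycle element).
Mki67: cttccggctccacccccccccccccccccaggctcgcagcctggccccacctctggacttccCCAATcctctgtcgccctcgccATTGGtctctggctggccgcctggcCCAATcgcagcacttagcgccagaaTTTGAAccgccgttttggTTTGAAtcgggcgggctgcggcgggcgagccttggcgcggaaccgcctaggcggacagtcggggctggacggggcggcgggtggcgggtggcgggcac
Ccnb1: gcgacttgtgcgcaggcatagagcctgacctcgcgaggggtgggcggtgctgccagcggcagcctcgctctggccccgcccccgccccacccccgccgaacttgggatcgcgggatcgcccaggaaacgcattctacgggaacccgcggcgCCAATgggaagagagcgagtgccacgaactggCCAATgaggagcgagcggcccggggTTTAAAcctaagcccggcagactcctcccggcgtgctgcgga
Ccnb2: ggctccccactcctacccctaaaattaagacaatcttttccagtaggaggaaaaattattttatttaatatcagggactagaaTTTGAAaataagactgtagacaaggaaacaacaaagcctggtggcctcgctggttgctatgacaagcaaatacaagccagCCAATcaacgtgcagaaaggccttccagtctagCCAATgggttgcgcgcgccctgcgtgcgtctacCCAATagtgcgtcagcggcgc
In Mki67, ATTGG began 188, 166 and 141 bases before the start site and TTTGAA 116 and 98 bases before it. In Ccnb1, ATTGG began at 99 and 67 bases and TTTAAA at 42, and in Ccnb2, ATTGG began at 87, 54 and 21 and TTTGAA at 167. A further TTTGAA of Ccnb2 began 4 bases after the start site. It lies beyond the bases printed but inside the windows counted next. In windows of 300 bases, 250 before and 50 after the start site, ATTGG was found in 17 of the 20 listed genes that had a window, against 37.4% of all 32851 windows. TTTGAA or TTTAAA was found in 14 of 20, against 27.6%, and ATTGG with either of them in 12 of 20, against 10.7%. A listed gene was counted if any of its windows held the motif, while the share is over single windows, so these are unlike units. Genes with several windows had more chances of a match. These matches describe the letters and not binding.

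MHC class II genes, which present peptides on macrophages, dendritic cells and B cells, averaged lower: 9 of 10 had a lower mean, beside 50.9% of all genes tested, 6 were lower at an unadjusted p below 0.05 (beside 3.26% of all genes) and 6 had lower arms without overlap (beside 7.82%). The median log2 difference was -0.97. DESeq2 called 3 as lower and edgeR 0, beside 0.426% and 0.0158% of all genes tested. H2-Aa and H2-Ab1, the chains of the I-A molecule, stood at 37.2 and 39.0 CPM (COH), 22.2 and 27.5 CPM (OHSS) and 11.2 and 13.3 CPM (nintedanib) and at 47.2 and 52.4 CPM (COH), 26.7 and 28.9 CPM (OHSS) and 13.8 and 11.1 CPM (nintedanib). Their log2 differences were -1.36 (SE 0.266) and -1.64 (SE 0.336). The OHSS libraries lay below the COH libraries for both, with OHSS minus COH at -0.62 (SE 0.163) and -0.84 (SE 0.153), and the nintedanib libraries lay below the OHSS libraries. H2-DMb1, a chain of the peptide exchanger, averaged 1.86 ± 0.417 against 3.48 ± 0.778 CPM. H2-Eb1, picked out after its values were seen, did not follow, at 2.08 and 2.07 CPM (COH), 1.74 and 11.8 CPM (OHSS) and 1.32 and 10.3 CPM (nintedanib): 1 library of OHSS and 1 of nintedanib held most of its counts. Without nintedanib replicate 2, 4 genes were lower at an unadjusted p below 0.05 (beside 2.44%) and 8 had lower arms (beside 19.0%). Without COH replicate 1 or COH replicate 2, 3 genes were lower at that p in each case.

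H2-Aa and H2-Eb1 are shown because the first followed the list and the second did not, though both carry the boxes known from MHC class II promoters. The sequences are 250 bases before the start site, from RefSeq on GRCm38.p6, at chr17:34287824-34288073 on the minus strand and chr17:34305617-34305866 on the plus strand. Capitals mark GATTGG (the Y box, which includes ATTGG) and GCAAC (part of the X box) on either strand.
H2-Aa: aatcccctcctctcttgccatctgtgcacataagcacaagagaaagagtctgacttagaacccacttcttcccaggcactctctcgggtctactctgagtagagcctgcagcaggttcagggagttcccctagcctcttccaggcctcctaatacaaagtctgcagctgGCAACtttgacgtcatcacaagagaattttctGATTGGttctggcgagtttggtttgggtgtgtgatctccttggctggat
H2-Eb1: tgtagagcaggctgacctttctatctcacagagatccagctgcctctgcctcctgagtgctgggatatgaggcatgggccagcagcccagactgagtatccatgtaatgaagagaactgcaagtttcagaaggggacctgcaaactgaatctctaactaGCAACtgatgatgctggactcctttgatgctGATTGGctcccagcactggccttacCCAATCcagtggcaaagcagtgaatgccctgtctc
In H2-Aa, GCAAC began 81 and GATTGG 49 bases before the start site, and in H2-Eb1, GCAAC began 91 and GATTGG 60 and 35 bases before it. Of the 7 listed genes that had a window, 6 held GATTGG, against 16.1% of all windows, 5 held GCAAC, against 35.2%, and 4 held both, against 6.05%. Here too a gene was counted if any of its windows matched, while the share is over single windows.

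Markers of macrophages and monocytes, which carry MHC class II, averaged lower for 13 of 16 genes, beside 50.9% of all genes tested, with 3 lower and 0 higher at an unadjusted p below 0.05 (beside 3.26% and 4.22%) and a median of -0.23. The summed level of the 16 markers was 495 to 751 CPM in the drug-free libraries and 469.6 and 432 CPM with nintedanib. That separation rested on Lyz2: without it, a sum added after the values were seen, the other 15 markers came to 358 to 584 CPM in the drug-free libraries and 387 and 382 CPM with nintedanib, so the arms overlapped. List medians relative to the drug-free mean were -0.088 and 0.0094 (COH), 0.32 and -0.19 (OHSS) and -0.076 and -0.27 (nintedanib), and nintedanib replicate 1 lay within the drug-free range. Lyz2, lysozyme, stood at 239.5 and 262 CPM (COH), 167 and 137 CPM (OHSS) and 82.2 and 50.7 CPM (nintedanib), a log2 difference of -1.60 (SE 0.339), and OHSS minus COH was -0.72 (SE 0.246). Csf1r, the receptor of colony-stimulating factor, averaged 40.9 ± 6.48 against 54.1 ± 3.85 CPM (log2 difference -0.40, SE 0.131), Ccr2, a chemokine receptor, 2.83 ± 0.214 against 4.63 ± 0.858 CPM (log2 difference -0.71, SE 0.254) and Mrc1, the mannose receptor, 30.6 ± 2.63 against 34.6 ± 0.542 CPM (log2 difference -0.18, SE 0.101). The lower count was 1 without nintedanib replicate 2. Of the 16 markers, Marco had 0 counts in nintedanib replicate 2, and the other 15 were detected in every library. The part of these cells in the lower Cd74 and MHC class II values was not tested.

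**Figure D4:**
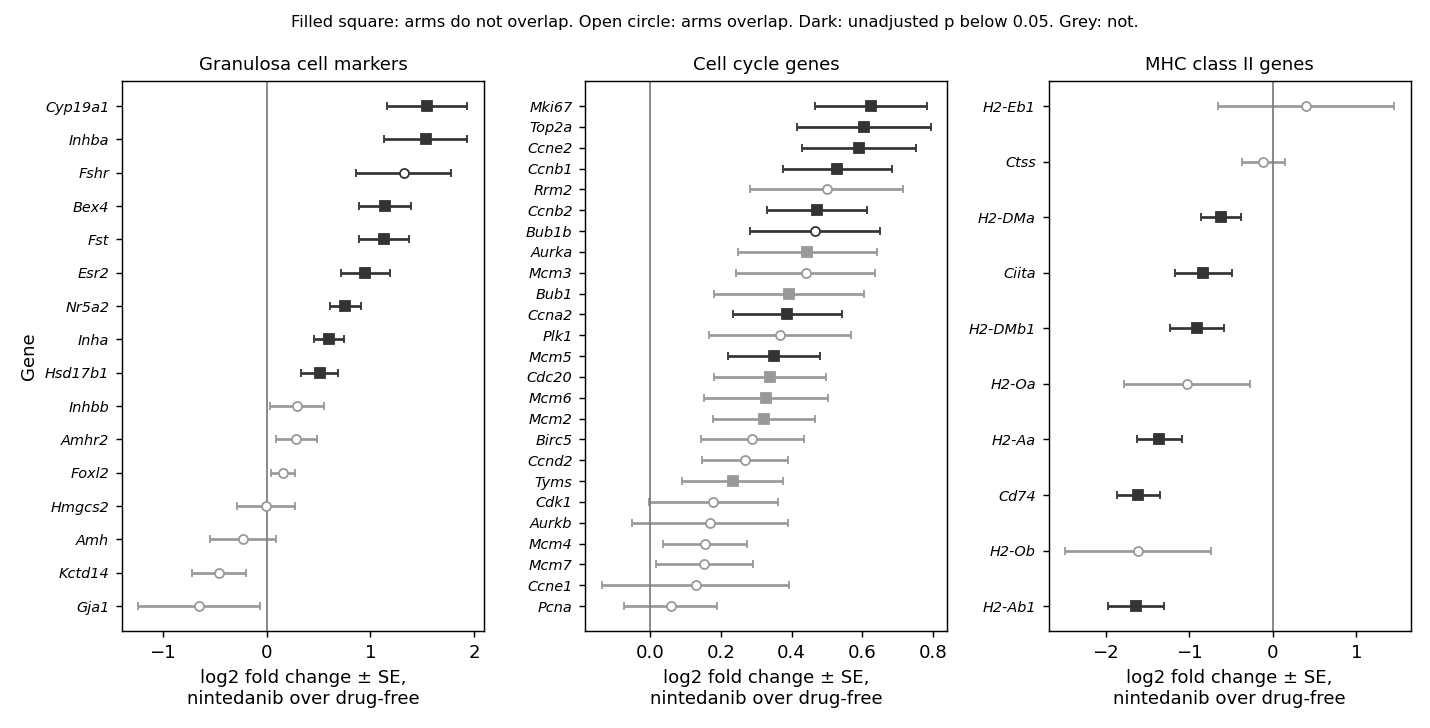
Log2 fold change with nintedanib over drug-free, with SE, of each tested member of 3 gene lists; filled squares are genes whose arms did not overlap and dark symbols have an unadjusted p below 0.05. All 25 cell cycle genes lie above 0, 12 of 16 granulosa markers lie above 0 and 9 of 10 MHC class II genes lie below 0.

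MHC class I and interferon genes averaged higher, with OHSS replicate 1 and nintedanib replicate 2 above the other library of their group. All 13 genes of MHC class I and peptide loading averaged higher, beside 49.1% of all genes tested, with a median of 0.68. Of them, 5 were higher at an unadjusted p below 0.05 (beside 4.22%) and 2 had higher arms without overlap (beside 8.88%). H2-Q4, a class I molecule, stood at 18.7 and 22.9 CPM (COH), 47.5 and 21.3 CPM (OHSS) and 53.8 and 83.4 CPM (nintedanib), a log2 difference of 1.32 (SE 0.397). Erap1, which trims peptides, averaged 88.7 ± 12.7 against 57.7 ± 13.5 CPM (log2 difference 0.62, SE 0.210), Nlrc5, the transactivator of class I genes, 20.6 ± 15.4 against 6.25 ± 4.24 CPM (log2 difference 1.72, SE 0.636), and Tapbp, which loads peptides, 295 ± 107 against 178 ± 46.4 CPM (log2 difference 0.73, SE 0.281). Without OHSS replicate 1, 10 of 13 were at an unadjusted p below 0.05 (beside 5.38% of all genes), and without COH replicate 1, COH replicate 2 or OHSS replicate 2 it was 1 each, and 2 without nintedanib replicate 2.

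All 22 interferon response genes averaged higher with a median of 1.79, beside 49.1% of all genes tested. Yet 0 reached an unadjusted p below 0.05, beside 4.22% of all genes that were higher at that p. List medians relative to the drug-free mean were -1.34 and -1.47 (COH), 2.74 and 0.25 (OHSS) and 1.67 and 3.60 (nintedanib). OHSS replicate 1 lay above nintedanib replicate 1, and replicate 2 of nintedanib was the highest. Cxcl10, an interferon-induced chemokine, stood at 2.64 and 1.93 CPM (COH), 19.0 and 13.1 CPM (OHSS) and 10.9 and 74.9 CPM (nintedanib). Of the 22 genes, 1 had higher arms without overlap, Oasl2, beside 8.88% of all genes. Oasl2 stood at 23.5 and 22.5 CPM (COH), 147 and 70.1 CPM (OHSS) and 173 and 217 CPM (nintedanib), with OHSS above COH by 2.24 (SE 0.364). Bst2, a tether of viruses, averaged 594 ± 231 against 281 ± 176 CPM. Without OHSS replicate 1, 22 of 22 were higher at an unadjusted p below 0.05, beside 5.38% of all genes, and the median was 3.50, and without nintedanib replicate 2 the median was 0.46 with 0 at that p. Of 16 complement genes, 2 were higher, C4b (log2 difference 1.25, SE 0.470) and Masp1, a protease of the lectin pathway (log2 difference 1.24, SE 0.339), and 1 lower, C3, at an unadjusted p below 0.05, beside 4.22% and 3.26% of all genes. With nintedanib replicate 2 left out, 0 were higher and 2 lower at that p. C1s1, a protease of the classical pathway, averaged 62.2 ± 6.93 against 81.9 ± 16.1 CPM.

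Genes of matrix and tissue remodelling lay in both directions. Of 18 matrix genes, 1 was higher (Ctgf) and 2 lower at an unadjusted p below 0.05, beside 4.22% and 3.26% of all genes, and without nintedanib replicate 2 these were 2 and 1. Ctgf, a matricellular growth factor, stood at 39.8 and 39.3 CPM (COH), 59.5 and 57.1 CPM (OHSS) and 96.8 and 157 CPM (nintedanib), a log2 difference of 1.37 (SE 0.255) and was called by DESeq2 with an adjusted p of 0.00112. The lower ones were Timp1, an inhibitor of metalloproteinases (log2 difference -1.03, SE 0.426), and Col6a1, a chain of collagen VI (log2 difference -0.32, SE 0.134), and Tgfb2 averaged 14.0 ± 2.17 against 19.7 ± 4.24 CPM. Of 20 tested proteases and inhibitors, 2 were higher (Serpine2, a protease nexin of granulosa cells, 0.69, SE 0.186, and Adamts1) and 3 lower (Plat, the tissue plasminogen activator, -0.34, SE 0.124, Mmp9, -1.04, SE 0.417, and Timp1), beside the same shares of all genes. With nintedanib replicate 2 left out, 0 were higher and 0 lower at that p, and leaving out either COH library gave 0 lower.

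Of 20 tested xenobiotic response genes, which would include enzymes that act on a drug, 3 were higher and 0 lower at an unadjusted p below 0.05 (beside 4.22% and 3.26% of all genes), with a median of 0.10. The higher count was 1 if COH replicate 1 was left out, 5 if OHSS replicate 1 was, and 2 if nintedanib replicate 2 was. Gsta4, a glutathione transferase of lipid aldehydes, stood at 89.4 and 93.2 CPM (COH), 108 and 109 CPM (OHSS) and 138 and 139 CPM (nintedanib), a log2 difference of 0.47 (SE 0.114), and Nqo1 and Gsta3, both targets of NRF2, had 0.64 (SE 0.218) and 0.65 (SE 0.262). Gclm, of glutathione synthesis, averaged 53.7 ± 4.67 against 21.6 ± 15.9 CPM with arms that did not overlap. Of 20 immediate early genes, which respond within minutes to growth factor signals, 4 were lower and 0 higher at an unadjusted p below 0.05, beside 3.26% and 4.22%. Leaving out nintedanib replicate 1 gave 1 lower and 1 higher, and leaving out replicate 2 gave 3 lower. Egr2 stood at 9.19 and 11.8 CPM (COH), 5.92 and 8.78 CPM (OHSS) and 2.81 and 4.64 CPM (nintedanib), a log2 difference of -1.26 (SE 0.347) and was called by DESeq2 with an adjusted p of 0.0494. Fosl1, Egr3 and Btg2 had -1.01 (SE 0.290), -1.19 (SE 0.383) and -0.57 (SE 0.235). The list median of -0.16 was 0.031 without nintedanib replicate 1 and -0.64 without replicate 2.

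**Figure D5:**
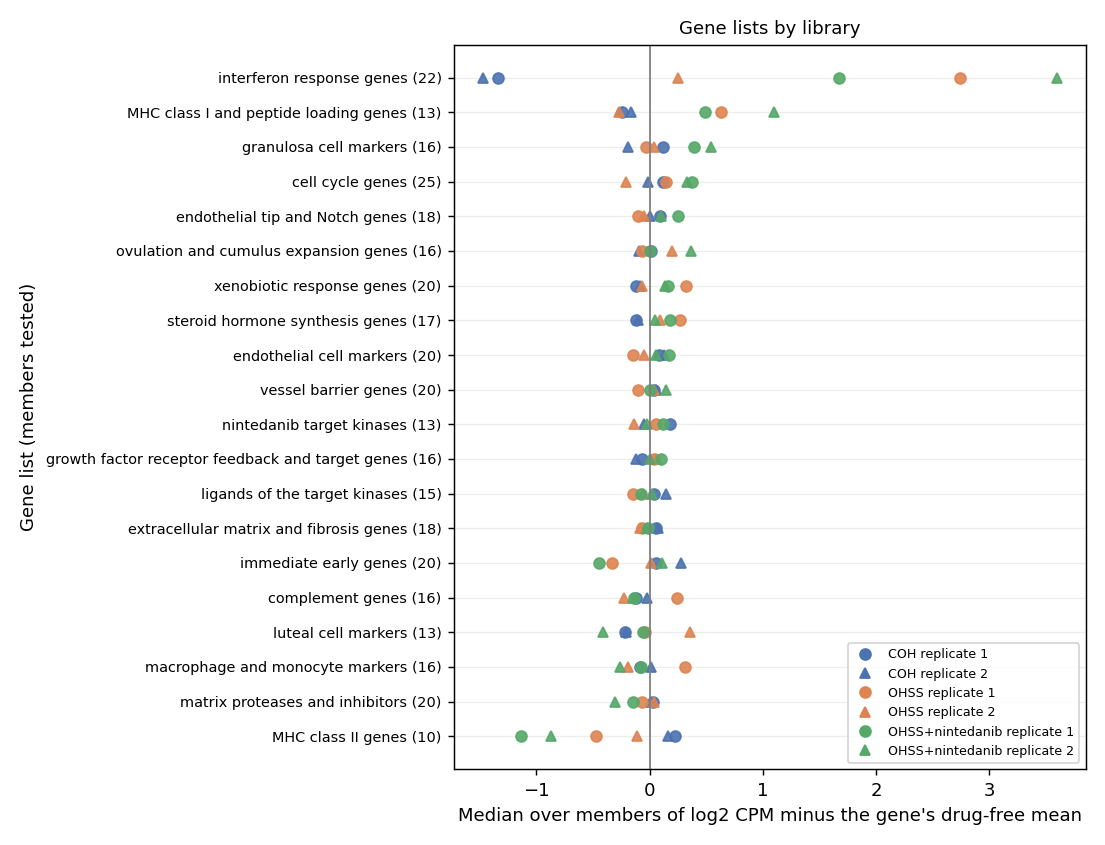
Median over the members of each list of log2 CPM minus the gene's drug-free mean (horizontal axis), 1 symbol per library. For granulosa markers and cell cycle genes both nintedanib libraries lie above the 4 drug-free libraries and for MHC class II genes below them, while for interferon response genes OHSS replicate 1 at 2.74 lies between the nintedanib libraries at 1.67 and 3.60.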

How the data were processed

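Bulk RNA of 6 mouse ovary libraries was measured, in the 2 arms above. The deposited table holds whole-number counts per Ensembl gene made by the authors, per the file headers. HISAT2 2.1.0, StringTie 1.3.3b, Trimmomatic 0.36 and the build mm8 are listed, with no roles, by the submitters' processing notes. Counting program, annotation and strand setting are not given in the sources used, and coordinates are printed only for RefSeq promoter windows, on GRCm38.p6, which is not that build. Counts came to 144% to 148% of the read pairs in the deposited read summaries, as if a pair were counted as 2 reads, so a floor of 6 counts per library stands for 3 pairs.

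The counts were tested in R 4.3.3 with edgeR 4.0.16: TMM factors, filterByExpr by arm, a quasi-likelihood test with 4 residual and 2.55 prior degrees of freedom, and Benjamini-Hochberg adjustment over 19027 genes, tested on simulated data first. CPM use TMM-scaled library sizes, and a prior count of 2 was used for log2 CPM. Genes were named by 3 rules: up to 12 in each direction, called first and then by unadjusted p, with a mean of at least 5 CPM, arms that did not overlap and no pseudogene or predicted symbol; a fixed set of receptors, vessel and steroid genes; and, for every list in the text, at most 4 members taken in order of p. The members and the 41 lists (652 genes, all with a row in the table) were chosen with earlier results of these data known, so list counts and medians are descriptions beside the same over all genes. Alternatives were RLE, upper-quartile or no scaling factors, other filters, DESeq2 1.42.0, limma voom 3.58.1, a replicate block, 3 separate groups, a robust prior, a test against a log2 change of 0.5, and leaving out each library. The 15 alternatives counted for single genes do not include the robust prior or the test against a log2 change of 0.5. Copies were found with BLAST 2.17.0 on annotated transcripts. Promoter windows and their motifs came from RefSeq on GRCm38.p6, where a gene can have several windows. Values of 2 genes that the rules would name are not reported here, though the counts include them. Intervals cover counting error only.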

Additional observations from a re-analysis of the deposited data

Results flagged for a closer look

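In each group of 4 drug-free libraries, a library was marked where its gap to the nearest other, divided by the range of the 4, was above Dixon's 95% critical value. This was met by 14 of 149 results tested, and chance marks about 1 in 20.

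OHSS replicate 1 accounted for 11 of them. It was above the other 3 drug-free libraries in interferon and class I genes, with Bst2 at 544 CPM (others 173 to 215), H2-Q4 at 47.5 CPM (18.7 to 22.9), Erap1 at 78.0 CPM (50.4 to 51.8) and Nlrc5 at 12.5 CPM (3.37 to 4.88). The median of the MHC class I list was 0.63 in this library (others -0.27 to -0.16), C4b stood at 20.3 CPM (6.52 to 8.09) and the median of the xenobiotic list was 0.32 (-0.12 to -0.063). It was below the others in Pecam1 at 74.3 CPM (106.2 to 112), Egr3 at 1.93 CPM (3.74 to 4.09), Btg2 at 52.3 CPM (82.1 to 87.4) and the median of the vessel barrier list at -0.10 (0.038 to 0.060).

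COH replicate 2 was below the others in Hsd17b1, at 72.1 CPM (102 to 106). OHSS replicate 2 was above the others in Snap25, at 6.67 CPM (0.245 to 0.707), and below them in the median of the stromal and theca markers, at -0.35 (0.10 to 0.14).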

How the results depend on the processing

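The number of genes called between the arms was 5 (2 higher, 3 lower) with RLE, upper-quartile or no scaling factors, without a filter (31645 genes), at a mean of at least 5 CPM (12302 genes) and with a robust prior, and these were the same 5 genes each time. It was 186 with DESeq2 (105 higher, 81 lower; 429 genes had no adjusted p), 4 with limma voom (1 lower), 3 with 3 separate groups (1 lower) and 3 with the test against a log2 change of 0.5 (1 higher). With the replicate block it was 0 (0 higher, 0 lower), and 1235 genes had an unadjusted p below 0.05; same-numbered libraries deviated from their group means with correlations of 0.022, 0.093 and -0.039 over 12303 genes, so the numbers do not pair the libraries. Leaving out 1 library gave 0 to 75 calls, 0 to 43 higher and 0 to 32 lower; where a nintedanib library was left out, the lone library was assumed to vary like the drug-free ones. Settings added after the data were seen gave 360 (DESeq2) and 0 (limma voom) calls for OHSS against COH, where edgeR gave 2, 223 calls with DESeq2 for nintedanib against OHSS, and 449 (DESeq2) and 2 (limma voom) for nintedanib against COH. Of the named genes, 3 uncalled kinases or markers and Lhcgr changed sign: Fgfr1 to 0.034 without nintedanib replicate 1 (range over all libraries left out -0.22 to 0.034), Fgfr4 to -0.026 with limma voom and -0.43 (-0.43 to 0.41) without nintedanib replicate 1, Pecam1 to -0.095 without OHSS replicate 1 and -0.024 without nintedanib replicate 1 (-0.095 to 0.089), and Lhcgr to 0.16 without nintedanib replicate 2 (-0.71 to 0.16). Apart from these, 30 values of uncalled named genes passed the threshold under DESeq2, and 30 values of the 5 called genes no longer passed under an alternative. Of the list medians recomputed, 451 moved by less than the pooled SD of the library medians around the means of the 2 arms, and 40 by more. That SD takes in any difference between COH and OHSS. It is therefore wide for the interferon list, whose drug-free medians ran from -1.47 to 2.74, and is no measure of replicate spread. The cause of the changes in calls, values and medians was not tested. With 2 libraries in 1 arm, small differences are not detectable after adjustment, and at an unadjusted p below 0.05 edgeR marked 1422 genes.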

Other observations

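Lists that the report does not describe are given here by their members at an unadjusted p below 0.05 with all 6 libraries. Over all genes tested, 4.22% were higher and 3.26% lower at that p. Of 10 lymphatic endothelial markers 1 was higher, Nts, which encodes neurotensin, at 0.646 and 0.210 CPM (COH), 0.161 and 0.297 CPM (OHSS) and 0.867 and 3.58 CPM (nintedanib). Of 11 tested genes of the renin-angiotensin system, 1 was higher (Ace) and 1 lower (Agtr2, an angiotensin receptor, -0.95, SE 0.357). Of 18 axon guidance genes, Slit3 (log2 difference 0.71, SE 0.239) and Sema3c (log2 difference 0.53, SE 0.212) were higher and Slit2 (log2 difference -0.60, SE 0.208) lower; these encode secreted guidance cues. Of 17 tested inflammatory genes, Cxcl12 (log2 difference -0.87, SE 0.358) and Il1b (log2 difference -0.76, SE 0.298), a chemokine and a cytokine, were lower. Other single lower genes were Cd3e among 15 tested lymphocyte markers (log2 difference -1.35, SE 0.436), Kcnj8 among 14 pericyte markers (log2 difference -0.70, SE 0.188), Pax8 among 10 tested oviduct markers (log2 difference -3.06, SE 1.05), Ndufa4 among 25 nuclear respiratory chain genes (log2 difference -0.38, SE 0.140) and Hsd17b7 among 24 cholesterol genes, and a single higher one was Acacb among 14 fatty acid synthesis genes (log2 difference 0.55, SE 0.133). Mmp8, a neutrophil collagenase, had 0 counts in both nintedanib libraries and 4 to 16 in the drug-free ones, a level too near the floor for a fold. The lists of stromal and theca, oocyte, surface epithelium, adipocyte, erythroid, prostaglandin, hypoxia and heat shock genes had 0 members at an unadjusted p below 0.05. For some of these lists the nintedanib libraries lay apart. Oocyte markers had a median log2 difference of 0.43 without nintedanib replicate 1 and -0.52 without replicate 2. In the same order, surface epithelium markers had 0.15 and -0.88, and heat shock genes 0.23 and -0.17. Prostaglandin genes had similar medians, -0.16 and -0.18.

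Among 29 cytosolic ribosomal protein genes, 2 were higher (Rps18 and Rps2) and 0 lower at an unadjusted p below 0.05, beside 4.22% and 3.26% of all genes. Rps2 was counted at 28.4 and 31.2 CPM (COH), 24.6 and 22.2 CPM (OHSS) and 21.8 and 438 CPM (nintedanib), so that a single nintedanib library held nearly all of the difference. Rps2 has many near-identical copies in the annotation, and the value is uncertain. The median of the 29 genes was -0.10, beside -0.21 for 13 mitochondrially encoded genes, of which mt-Nd3 was lower (log2 difference -0.39, SE 0.127).

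Genes with counts in 1 arm only were chosen after their values were seen. AC099934.7, an unnamed transcript, had 0 counts in all 4 drug-free libraries and 26 and 32 counts with nintedanib, a level of 0.902 and 0.997 CPM; limma voom called it with an adjusted p of 0.0451 and edgeR did not, at 0.401. Gm8332 likewise had 0 counts in the drug-free libraries and 23 and 96 with nintedanib. The reverse, 0 counts with nintedanib and more than 6 in every drug-free library, held for Pcdhb19 and Gm5105, whose drug-free counts were 7 to 20.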
